A study of Mus musculus with 9 samples.

Results

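Macrophage fusion is described here through 9 genes: Dcstamp, Ocstamp, Cd9, Cd81, Cdh1, Acp5, Atp6v0d2, Nfatc1 and Mitf. They were chosen by name from the 53379 genes measured, with earlier results of these data known. They encode the fusion proteins, adhesion proteins, effectors and transcription factors best known from osteoclasts and from the giant cells that Mϕs form. RNA was measured by bulk RNA-seq of BM-derived Mϕs from WT C57BL/6 mice, with 3 libraries per group. BM flushed from femur and tibia was grown in 10 ng/ml CSF-1 for 3 days, and then for another 4 days in CSF-1 alone (control), with IL-4 at 10 ng/ml or with IL-6 at 100 ng/ml, as the labels state. The methods give IL-4 the same concentration as IL-6, and the figure legends give a different concentration and a shorter exposure. All groups thus received CSF-1, the cells were mixed marrow cultures without a sort, and no RANKL is listed among the additions. The figure legends give 3 mice. Column names number the libraries 1 to 3 in each group, and this number was taken as the mouse, which the values do not bear out throughout. The age and sex of the mice are not given in the sources used here.

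Mononuclear phagocytes can join into multinucleated cells. In bone, CSF-1 and RANKL turn their precursors into osteoclasts, in which NFATc1 and MITF drive the genes for fusion and for bone resorption. In other tissues, IL-4 acts through STAT6 to make Mϕs fuse into giant cells, which use part of the same machinery, whereas IL-6 signals through STAT3.

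The libraries held 29988160 to 39909571 fragments assigned to genes. Values are fragments per kilobase of transcript, scaled to library size (FPKM), which compare levels per length. Fold changes and their standard errors (SE) were fitted with limma on log2(FPKM + 0.1), so the change of low genes is understated. The threshold was a Benjamini-Hochberg adjusted p under 0.05 over all 12824 genes tested together with a 2-fold change, that is 1 or more on the log2 scale. Both treatments were visible in the RNA. Arg1, the arginase induced by IL-4, rose from 0.577 ± 0.156 FPKM in control to 1044 ± 273 FPKM with IL-4 (SD, n = 3), and Socs3, the STAT3 target, rose from 2.27 ± 0.653 FPKM to 80.4 ± 5.42 FPKM with IL-6. All 10 Mϕ markers were detected in every group. Their summed level was 18065 to 20167 FPKM in control, 6761 to 7449 FPKM with IL-4 and 21641 to 22882 FPKM with IL-6, and 6 of the 10 fell with IL-4. Most of this sum was Lyz2, at 14577 FPKM in control and 18488 FPKM with IL-6 on average. With IL-4, Lyz2 was at 4479 FPKM in IL-4 #1 and at 5340 FPKM on average in IL-4 #2 and #3. Granulocyte markers summed to 4747 to 8519 FPKM in control, 2116 to 4061 FPKM with IL-4 and 7681 to 10711 FPKM with IL-6, and 7 of 8 fell with IL-4. Over all genes tested, 8.89% passed as lower with IL-4. In bulk samples, fewer cells of a type and less RNA per cell cannot be told apart.

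The libraries also differed in ways that the groups do not explain. Transcripts of Paneth and goblet cells, which line the gut, summed to 34.0 to 49.8 FPKM in the 3 control libraries and IL-4 #1, but to 0.0139 to 0.175 FPKM in the other 5. Control and IL-6 libraries therefore never shared a set, and no set allows a comparison between them. Library IL-4 #3 stood apart as well, with a median-ratio scale factor of 0.766 against 0.990 to 1.07 in the others, and a log2 level that fell by 0.123 per doubling of transcript length, against -0.0448 to 0.0523. The part of either in the results below was not tested beyond the values given beside them.

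With IL-4, more of these 9 genes passed as higher than as lower, whereas none of them passed as higher with IL-6. Of the 9 genes, 5 rose with IL-4 (Ocstamp, Dcstamp, Cdh1, Acp5 and Atp6v0d2) and 1 fell (Nfatc1), where 13.9% of all genes tested passed in either direction, 5.02% as higher and 8.89% as lower. With IL-6, 3 fell (Atp6v0d2, Dcstamp and Cd9) and 0 rose, where 5.38% of all genes passed, 3.49% as higher and 1.89% as lower. The 9 genes were chosen with earlier results of these data known, so setting them beside all genes is a description, not a test. All 9 passed the filter on low values, a mean of 0.5 FPKM, but Ocstamp did so only through the IL-4 libraries, so that its rise is a description. Of the 8 that passed without them, 4 rose and 1 fell with IL-4, with a median log2 fold change of 1.29. With IL-4 the median over all 9 was 1.77 and that of all genes tested -0.20, and with IL-6 these were -0.26 and 0.00. Both comparisons share the 3 control libraries. Rescaling each library by its median ratio changed the split of all genes called with IL-4 from 644 higher and 1140 lower to 834 higher and 874 lower and the median of all genes from -0.20 to -0.008, and then 6 of the 9 genes rose with IL-4. With a term for the set of libraries, 5 rose and 0 fell with IL-4, and Atp6v0d2 alone fell with IL-6.

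**Figure D1:**
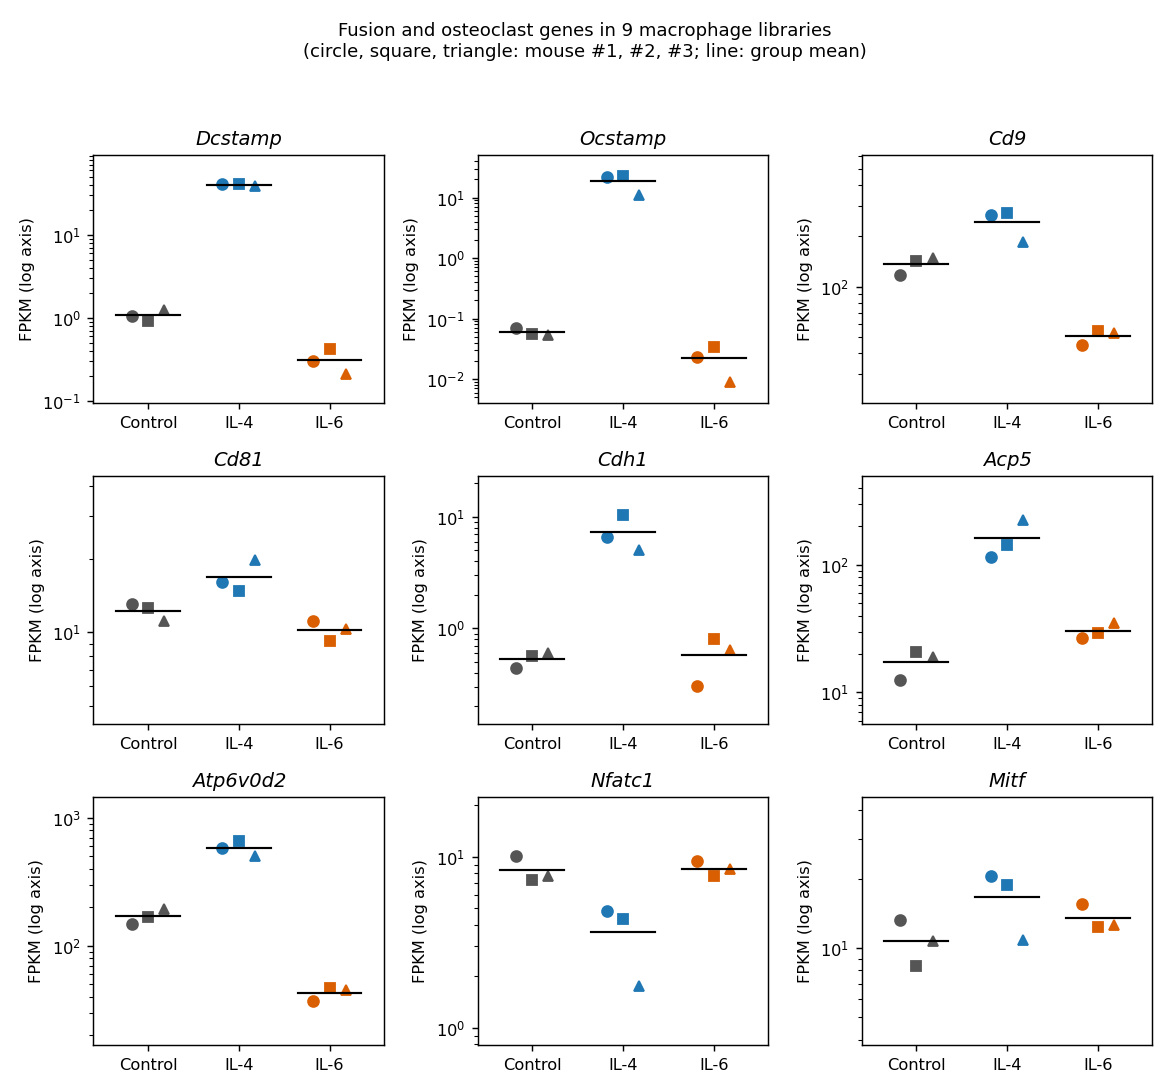
Level of each of the 9 genes in every library, in FPKM on a log axis, by group (circle, square and triangle for mouse #1, #2 and #3; line for the group mean). Dcstamp, Ocstamp, Acp5, Cdh1 and Atp6v0d2 were higher in all 3 IL-4 libraries than in any other library, and Mitf overlapped between all groups.

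The promoter of Acp5, the gene for tartrate-resistant acid phosphatase, is printed because among the windows searched it alone held motifs of MITF and of STAT6. RefSeq windows (GRCm38.p6) of 4 of the 9 genes were searched, and Nfatc1 was left out of this search. There were 3 annotated starts for Acp5, 3 for Mitf, 1 for Cd9 and 1 for Cd81. The 250 bases before each start were read on both strands. The window of one Acp5 start (chr9:22130599-22130848, minus strand, read 5′ to 3′ on that strand) holds a STAT6-type palindrome, TTCNNNNGAA, at bases 141 to 150 and the M-box TCATGTG, bound by the MITF family, on the reverse strand at bases 161 to 167, both in capitals and counted from the first base printed.
Acp5: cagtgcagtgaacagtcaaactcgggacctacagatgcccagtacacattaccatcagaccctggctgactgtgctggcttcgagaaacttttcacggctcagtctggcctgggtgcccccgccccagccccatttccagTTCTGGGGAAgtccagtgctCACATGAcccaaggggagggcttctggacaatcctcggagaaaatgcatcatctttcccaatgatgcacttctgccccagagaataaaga
The M-box was in 1 of the 8 windows and in 3.25% of 32851 windows of all genes, and the STAT6-type motif in 1 of 8 and 5.85%. The STAT3-type motif TTCNNNGAA was in 0 of 8 windows and in 7.02% of all. The short NFAT core GGAAA was in 6 of 8 and in 55.6% of all, including 2 matches in the window printed, at bases 134 to 138 and 214 to 218, which overlap neither motif in capitals. These are matches of letters, and the gene-level values do not show which start was used.

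Dcstamp (chr15:39745930-39760938, plus strand, GRCm38) encodes DC-STAMP, a multi-pass membrane protein without which osteoclast precursors and giant cells stay mononuclear. Its level in control libraries #1, #2 and #3 was 1.05, 0.914 and 1.25 FPKM, read from 73 to 117 fragments. With IL-4 it was 41.4, 41.1 and 38.7 FPKM (3322 to 4115 fragments), and with IL-6 it was 0.301, 0.425 and 0.208 FPKM (17 to 37 fragments). No library of one group overlapped those of another, and the IL-4 libraries were closely alike. The mean with IL-4, 40.4 ± 1.5 FPKM (SD, n = 3), was 37.7 times that of control, 1.07 ± 0.17 FPKM, with a log2 fold change of 5.12 (SE 0.213, adjusted p = 3.04e-06, limma). IL-4 #1, from the same set as the controls, was 38.6 times the control mean. With IL-6 the mean was 0.311 ± 0.109 FPKM, 29.0% of control, a log2 fold change of -1.54 (SE 0.213, adjusted p = 0.00373, limma). That call was lost once the set entered the fit (log2 fold change -1.48, SE 0.403, adjusted p = 0.139, limma), and the log2 fold change was -0.66 with a pseudocount of 1.

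Ocstamp (chr2:165393760-165400405, minus strand) encodes OC-STAMP, a membrane protein related to DC-STAMP and also needed for fusion. In control libraries it was at 0.0705, 0.0547 and 0.0546 FPKM, which is 9, 6 and 7 fragments. With IL-4 it reached 21.9, 22.6 and 11.1 FPKM (1621 to 2735 fragments), and with IL-6 it was at 0.0235, 0.0335 and 0.0089 FPKM, from 3, 4 and 1 fragments. Ocstamp was thus near the floor of detection unless IL-4 was present, and it passed the filter on low values only through the IL-4 libraries. Its mean with IL-4 was 18.5 ± 6.44 FPKM against 0.0599 ± 0.00916 FPKM in control, a ratio of 309 and a log2 fold change of 6.80. In the fit of all genes without a filter, which its IL-4 level did not decide, the adjusted p was 1.04e-05 (limma, SE 0.294). The size depends on the pseudocount, from 4.14 to 8.11 over the alternatives, and IL-4 #1 was 365 times the control mean. Between IL-6 and control the log2 fold change was -0.39 (SE 0.310, adjusted p = 0.543, limma), and 0.068 with the set as a term, so no difference was detectable at this depth. The level of Dcstamp was 18.2 ± 4.2 times that of Ocstamp in control, 2.4 ± 0.94 times with IL-4 and 16.3 ± 6.11 times with IL-6. Of the 50-base words of Ocstamp transcripts, 2.80% also occur in transcripts of other genes.

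The surface proteins that steer fusion moved unequally. Cd9 (chr6:125460266-125494791, minus strand) encodes a tetraspanin that organizes membrane microdomains and limits fusion of Mϕs in some settings. Its level was 117, 141 and 148 FPKM in control libraries, 267, 274 and 184 FPKM with IL-4, and 44.7, 54.4 and 53.3 FPKM with IL-6. All 3 groups were separate, with IL-6 the lowest. With IL-6 Cd9 fell to 37.4% of control (50.8 ± 5.29 against 136 ± 16.2 FPKM, SD, n = 3), a log2 fold change of -1.41 (SE 0.183, adjusted p = 0.003, limma), which was -1.16 and did not pass with the set as a term (adjusted p = 0.152, limma). With IL-4 the mean was 242 ± 50.1 FPKM and the log2 fold change 0.82 (SE 0.183, adjusted p = 0.0135, limma), short of the limit on size. Without IL-4 #3 it was 1.00 and passed, as it did after median-ratio rescaling, at 1.01. Of its 50-base words, 5.67% are shared with other transcripts, a Cd9 pseudogene among them, and 218 of its exon bases overlap the antisense gene Gm26728, whose reads may not have been told apart.

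Cd81 (chr7:143052739-143067934, plus strand), a tetraspanin that often partners CD9, was lower and flatter. It was at 13.1, 12.6 and 11.1 FPKM in control, 16.1, 14.8 and 19.9 FPKM with IL-4 and 11.1, 9.25 and 10.3 FPKM with IL-6. The IL-4 libraries lay above all others, but neither cytokine gave a difference from control past the threshold, with log2 fold changes of 0.45 (adjusted p = 0.0539, limma) and -0.26 (adjusted p = 0.368, limma), each with an SE of 0.146. Cd9 was 11.2 ± 2.21 times the level of Cd81 in control, 14.8 ± 4.90 times with IL-4 and 5.03 ± 0.934 times with IL-6. The IL-6 ratios lay below all control ratios, which with 3 libraries against 3 gives an exact permutation p of 0.1, the smallest such a test can give.

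Cdh1 (chr8:106603351-106670246, plus strand) encodes E-cadherin, the calcium-dependent adhesion protein of epithelia, which IL-4-treated Mϕs also make. Control libraries held 0.438, 0.569 and 0.604 FPKM (70 to 97 fragments). IL-4 libraries held 6.60, 10.4 and 5.07 FPKM (926 to 1447 fragments), and IL-6 libraries 0.307, 0.797 and 0.641 FPKM (49 to 119 fragments). All IL-4 libraries were above the rest, whereas the IL-6 and control libraries overlapped. Cdh1 rose 13.7-fold with IL-4, from 0.537 ± 0.0874 to 7.37 ± 2.76 FPKM (SD, n = 3), with a log2 fold change of 3.50 (SE 0.357, adjusted p = 0.000287, limma). IL-6 gave a log2 fold change of 0.03 (SE 0.357, adjusted p = 0.969, limma). The summed level of 17 epithelial genes was 6.03 to 6.36 FPKM in control, 2.18 to 3.27 FPKM with IL-4 and 2.12 to 2.54 FPKM with IL-6. Only 1 of them passed the filter, Lgals4, which made up 2.87 FPKM of the control sum on average. The part of epithelial cells in the level of Cdh1 was not tested. For Cdh1, IL-4 #1 was 12.3 times the control mean, and IL-4 #2 and #3 together were 13.3 times the IL-6 mean. The first compares 1 library with the controls, and the second is not a comparison with control.

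**Figure D2:**
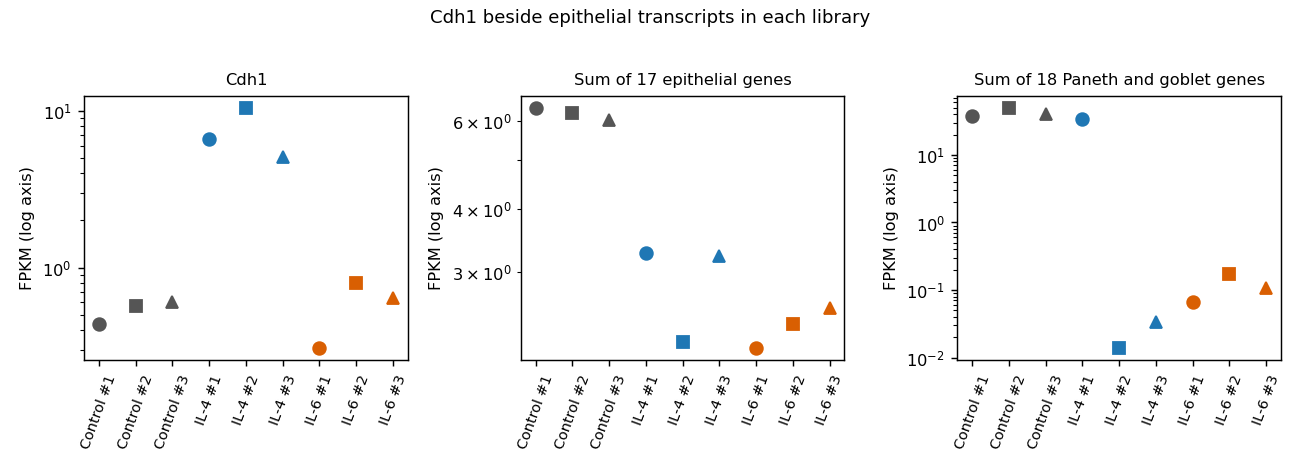
Cdh1 (left), the summed level of 17 epithelial genes (middle) and of 18 Paneth and goblet cell genes (right) in each library, in FPKM on log axes, with symbols for the mouse and colors for the group. Cdh1 was highest in the 3 IL-4 libraries, at 5.07 to 10.4 FPKM, while the epithelial sum was highest in the 3 control libraries, at 6.03 to 6.36 FPKM, and the Paneth and goblet cell sum was high in the control libraries and IL-4 #1.

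The effector genes split between the cytokines. Acp5 (chr9:22126727-22135711, minus strand) encodes the tartrate-resistant acid phosphatase used to stain osteoclasts. It was at 12.5, 20.7 and 18.9 FPKM in control, 116, 143 and 225 FPKM with IL-4 and 26.6, 29.3 and 34.8 FPKM with IL-6. The 3 groups did not overlap, and IL-4 was far the highest. The mean rose 9.29-fold with IL-4, to 161 ± 56.7 FPKM against 17.3 ± 4.32 FPKM (SD, n = 3), a log2 fold change of 3.18 (SE 0.277, adjusted p = 0.000134, limma). IL-4 #1 alone was 6.66 times the control mean. With IL-6 the mean was 1.74 times that of control, but the log2 fold change of 0.82 did not pass (SE 0.277, adjusted p = 0.124, limma), and it was 0.19 with the set as a term (adjusted p = 0.775, limma). The exons of Acp5 share 137 bases with the antisense gene 6530413G14Rik.

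Atp6v0d2 (chr4:19876841-19922605, minus strand) encodes the d2 subunit of the V0 sector of the vacuolar proton pump (V-ATPase), which acidifies the resorption space and is also needed for fusion. It was among the most abundant of the 9, at 147, 169 and 195 FPKM in control. With IL-4 it was at 579.6, 654 and 506 FPKM, and with IL-6 at 37.1, 46.9 and 45.2 FPKM. The groups were far apart in opposite directions. IL-4 raised it 3.41-fold to 580.0 ± 74.1 FPKM (SD, n = 3), a log2 fold change of 1.77 (SE 0.160, adjusted p = 0.000149, limma). IL-6 lowered it to 25.3% of control, 43.1 ± 5.24 against 170.3 ± 23.7 FPKM, a log2 fold change of -1.98 (SE 0.160, adjusted p = 0.000278, limma). Of the 3 genes that fell with IL-6 it was the one that still passed with the set as a term (log2 fold change -1.97, SE 0.302, adjusted p = 0.0326, limma).

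Its paralog Atp6v0d1, the d subunit found in most cells, was at 163 ± 26.7, 144 ± 37.4 and 125 ± 6.47 FPKM in control, IL-4 and IL-6 libraries, and passed in neither comparison with control. The ratio of d2 to d1 was 1.09, 0.896 and 1.17 in control libraries, 4.96, 5.05 and 2.71 in IL-4 libraries, and 0.315, 0.360 and 0.359 in IL-6 libraries. The 3 groups of ratios did not overlap (exact permutation p = 0.1 for each pair of groups). Of 21 V-ATPase subunits and accessory proteins beside Atp6v0d2, 18 were tested. Their medians with IL-4 and IL-6 were 0.07 and -0.29, against -0.20 and -0.004 over all genes tested, of which 13.9% and 5.38% passed. With IL-6, 0 passed in either direction, and with IL-4, 2 were higher and 1 lower. Those higher were Atp6v0a1, an a subunit (57.4 to 214 FPKM, log2 fold change 1.89, adjusted p = 4.06e-05, limma), and Atp6v1b2, the B subunit common in Mϕs and osteoclasts (126 to 294 FPKM, 1.23, adjusted p = 0.000205, limma). Atp6v1g2, the G subunit known from neurons, fell from 3.78 to 1.12 FPKM (-1.74, adjusted p = 0.00556, limma). Tcirg1, which encodes the osteoclast a3 subunit, was at 236 FPKM in control, 311 FPKM with IL-4 and 175 FPKM with IL-6, and did not pass. With IL-6, Atp6v0a1 was at 28.6 FPKM and its log2 fold change of -0.998 was just short of the limit, which 1 V-ATPase gene passed under several alternative settings, median-ratio rescaling among them.

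**Figure D3:**
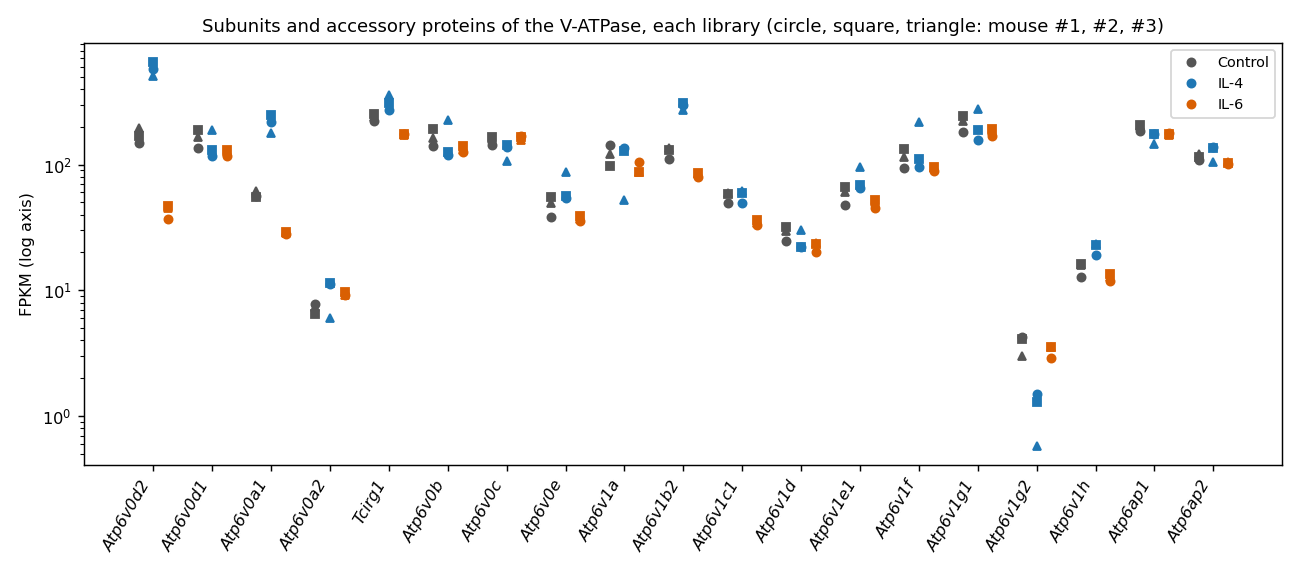
Level of Atp6v0d2 and the tested genes of the V-ATPase in each library, in FPKM on a log axis (gray, control; blue, IL-4; orange, IL-6; symbols for mouse #1, #2 and #3). Atp6v0d2 and Atp6v0a1 separated into 3 levels by group, while the levels of Atp6v0d1 overlapped between control and IL-4.

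Of the transcription factors, neither passed as higher. Nfatc1, which encodes the master regulator of osteoclast formation, was at 10.1, 7.33 and 7.75 FPKM in control libraries, 4.81, 4.36 and 1.75 FPKM with IL-4, and 9.41, 7.70 and 8.52 FPKM with IL-6. The IL-4 libraries were the 3 lowest, and the IL-6 libraries overlapped those of control. Nfatc1 fell with IL-4 from 8.41 ± 1.51 to 3.64 ± 1.65 FPKM (SD, n = 3), with a log2 fold change of -1.29 (SE 0.349, adjusted p = 0.0284, limma). This call held in 4 of the 9 fits that left out 1 library (adjusted p from 0.00388 to 0.1, limma), and was lost without Control #1, #2 or #3, IL-4 #3 or IL-6 #3. Without IL-4 #3 the log2 fold change was -0.85, and a fit with the set gave -0.78 (adjusted p = 0.363, limma). IL-6 gave a log2 fold change of 0.03 (SE 0.349, adjusted p = 0.967, limma).

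Mitf (chr6:97807052-98021349, plus strand) encodes the microphthalmia factor, which acts with its relatives TFE3 and TFEB on lysosomal and osteoclast genes. It was at 13.2, 8.35 and 10.8 FPKM in control, 20.6, 18.9 and 10.8 FPKM with IL-4 and 15.6, 12.3 and 12.6 FPKM with IL-6. All groups overlapped. The log2 fold changes of 0.60 with IL-4 (adjusted p = 0.142, limma) and 0.34 with IL-6 (adjusted p = 0.546, limma), each with an SE of 0.268, did not pass. IL-4 #3 was the lowest IL-4 library. When 1 library was left out, the value of Mitf with IL-4 ranged from 0.43 to 0.89 (adjusted p from 0.00775 to 0.331, limma). Under the other alternatives it was 0.57 to 0.95, and Mitf passed in 0 of these fits. Its relatives were measured at like levels, and 0 of the 3 passed. Tfec, the member known from Mϕs, was at 10.3, 15.1 and 11.1 FPKM in control, IL-4 and IL-6 libraries, Tfe3 was at 16.5, 12.9 and 16.3 FPKM, and Tfeb was at 14.1, 14.4 and 7.44 FPKM. Tfeb with IL-6 had a log2 fold change of -0.91 (adjusted p = 0.0147, limma), short of the limit on size.

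Of 12 other genes of the NFAT family and calcineurin, 10 were tested, with 2 lower with IL-4 and 0 called with IL-6. Their medians were -0.46 and 0.23, against -0.20 and -0.004 over all genes tested, of which 13.9% and 5.38% passed. Nfatc2, a relative of Nfatc1, fell with IL-4 from 5.43 to 1.70 FPKM (log2 fold change -1.73, SE 0.370, adjusted p = 0.0111, limma). Rcan1, a calcineurin regulator that NFAT itself induces, fell from 16.3 to 6.72 FPKM (-1.26, SE 0.133, adjusted p = 0.000306, limma). Nfatc3 was at 5.28, 4.42 and 6.63 FPKM and did not pass. The ratio of Nfatc1 to Nfatc3 was 1.59 ± 0.107 in control libraries and 1.29 ± 0.0479 in IL-6 libraries, against 0.799 ± 0.0963 in those of IL-4. In the fit with the set, 1 of the 10 was lower with IL-4.

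**Figure D4:**
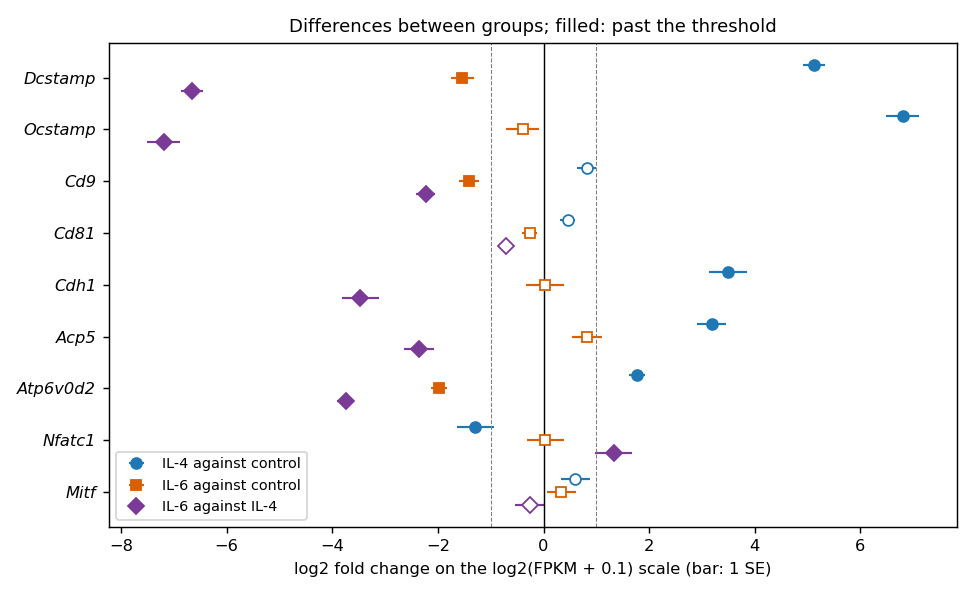
Log2 fold changes of the 9 genes in the 3 comparisons, on the log2(FPKM + 0.1) scale, with bars of 1 SE and filled symbols for values past the threshold. With IL-4 against control, Ocstamp and Dcstamp had the largest values, at 6.80 and 5.12. With IL-6 against IL-4, theirs were the largest in size, at -7.19 and -6.66. Nfatc1 alone was lower with IL-4 than in control.

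Compared directly, IL-6-treated Mϕs had lower levels than IL-4-treated Mϕs in 6 of the 9 genes and a higher level in 1, Nfatc1. Over all genes tested, 20.4% passed in either direction, 6.82% as lower and 13.6% as higher. The median log2 fold change of the 9 genes was -2.36, and that of all genes tested was 0.22. Dcstamp was 129.8-fold lower (log2 fold change -6.66, adjusted p = 7.05e-07, limma), and Ocstamp, with 1 to 4 fragments in IL-6 libraries, had a log2 fold change of -7.19 (adjusted p = 5.00e-06 without a filter, limma). The mean of Atp6v0d2 with IL-6 was 7.43% of that with IL-4 (-3.75, adjusted p = 1.88e-06, limma), that of Cdh1 7.89% (-3.47, adjusted p = 0.00021, limma), that of Acp5 18.8% (-2.36, adjusted p = 0.000421, limma) and that of Cd9 21.0% (-2.23, adjusted p = 5.83e-05, limma). Within the set that holds both cytokines, IL-4 #2 and #3 were 128 times the IL-6 mean for Dcstamp and 13.5 times for Atp6v0d2. Nfatc1 was higher with IL-6 than with IL-4 (1.33, adjusted p = 0.0204, limma), a call that held in 5 of the 9 fits without 1 library and was lost without IL-4 #3 or any 1 of the IL-6 libraries. Cd81 (-0.72, adjusted p = 0.00647, limma) was short of the limit on size, and Mitf (-0.26, adjusted p = 0.448, limma) did not pass.

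The receptors and signals upstream of NFATc1 were mixed with IL-4. Of 26 genes for osteoclast receptors and signaling, 24 were tested. With IL-4, 4 were higher and 2 lower, and with IL-6, 7 were higher and 0 lower. Of the 4, Fosl1 passed the filter only through the IL-4 libraries, at 0.260 FPKM in control and 0.531 FPKM with IL-6. Medians of the list were -0.33 and 0.41, against -0.20 and -0.004 over all genes tested, of which 13.9% and 5.38% passed. The counts with IL-4 became 7 higher and 2 lower after median-ratio rescaling, and 2 to 6 were higher and 2 or 3 lower when 1 library was left out. Ppargc1b, a coactivator of mitochondrial genes (log2 fold change 1.92, adjusted p = 0.0411, limma), and Src, the kinase gene needed for the ruffled border (1.29, adjusted p = 0.00418, limma), rose with IL-4, and Relb, of the alternative NF-κB pathway, fell (-1.28, adjusted p = 0.00113, limma). The call of Ppargc1b was lost without any 1 library other than IL-4 #3 (adjusted p up to 0.128, limma). Csf1r, the CSF-1 receptor, fell from 631 to 278 FPKM with IL-4 (-1.24, adjusted p = 0.0123, limma) and was at 615 FPKM with IL-6. Without IL-4 #3 its log2 fold change was -0.91. Tnfrsf11a, which encodes the RANKL receptor RANK, was at 10.3, 6.42 and 8.66 FPKM and passed in neither comparison. With IL-6 the largest rises were those of Src (2.23, adjusted p = 0.000812, limma) and Fosl2, an AP-1 protein (1.92, adjusted p = 0.0168, limma). The call of Fosl2 was lost without Control #2 or #3 or any 1 IL-6 library (adjusted p up to 0.0729, limma). With the set as a term, 2 genes of this list were higher with IL-6.

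Of 15 osteoclast repressors, 13 were tested, with 1 higher and 3 lower with IL-4 and 2 higher and 0 lower with IL-6. Medians were -0.29 and 0.56, against -0.20 and -0.004 over all genes tested, of which 13.9% and 5.38% passed. Lrrc32, which encodes the TGF-β docking protein GARP, rose with IL-4 from 0.604 to 17.8 FPKM (log2 fold change 4.61, adjusted p = 1.78e-05, limma). Irf8, a repressor of Nfatc1, fell from 43.2 to 18.4 FPKM (-1.25, adjusted p = 0.000837, limma), as did Prdm1, which encodes Blimp1, itself a repressor of Irf8 (-1.16, adjusted p = 0.0382, limma). The call of Prdm1 was lost without any 1 library other than IL-4 #1 (adjusted p up to 0.131, limma). Nfkbia, the NF-κB inhibitor (1.36, adjusted p = 0.000508, limma), and Rbpj, the Notch effector (1.07, adjusted p = 0.00772, limma), rose with IL-6. Rbpj fell short of the limit on size without Control #2, at 0.96. With the set as a term, 0 repressors were lower with IL-4 and 1 was higher with IL-6.

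Effectors of bone resorption were unevenly changed. Of 20, 17 were tested, with 2 higher and 3 lower with IL-4 and 2 higher and 1 lower with IL-6. List medians were 0.04 and 0.10, against -0.20 and -0.004 over all genes tested, of which 13.9% and 5.38% passed. Ctsk, which encodes cathepsin K, the main collagenase of osteoclasts, was at 5.19, 7.43 and 9.01 FPKM in control, 163, 232 and 277 FPKM with IL-4 and 7.01, 8.04 and 7.62 FPKM with IL-6. Its IL-4 libraries were far above the others (log2 fold change 4.94, SE 0.244, adjusted p = 7.19e-06, limma), and those of IL-6 and control overlapped. Car2, which encodes the carbonic anhydrase that supplies protons, went from 0.237 to 3.25 FPKM with IL-4 and is counted among those higher, but it passed the filter only through these libraries. Mmp14, the membrane-bound collagenase, went the other way, from 27.8 FPKM in control to 2.10 FPKM with IL-4 (-3.68, adjusted p = 6.06e-06, limma) and 134 FPKM with IL-6 (2.27, adjusted p = 0.000241, limma). Ckb, the creatine kinase of osteoclasts, fell with IL-6 from 75.6 to 23.0 FPKM (-1.70, adjusted p = 0.000583, limma). Calcr, the calcitonin receptor gene, and Oscar, the gene of an osteoclast-associated immune receptor, were at or near 0 in every library. They had 0 or 1 fragment and 2 to 5 fragments. Both are among the effectors that were not tested, whereas Ctsk, of the same list, was at 163 to 277 FPKM with IL-4.

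Among 27 further genes of the fusion machinery, 26 were tested, with 4 higher and 2 lower with IL-4 and 2 higher and 2 lower with IL-6. Their medians were -0.12 and 0.08, against -0.20 and -0.004 over all genes tested, of which 13.9% and 5.38% passed. The chemokine gene Ccl2 (log2 fold change 3.00, adjusted p = 0.00173, limma) rose with IL-4, while Spp1, which encodes osteopontin (-2.69, adjusted p = 4.02e-05, limma), and Sh3pxd2a, a podosome adaptor gene (-2.41, adjusted p = 0.0008, limma), fell. Spp1 was at 746, 117 and 2777 FPKM in control, IL-4 and IL-6 libraries, the reverse of the order of Atp6v0d2. With IL-6, Cd36, a scavenger receptor gene, fell from 311 to 27.2 FPKM (-3.50, adjusted p = 0.000171, limma) and Ccr2, the receptor gene for Ccl2, rose from 3.81 to 41.8 FPKM (3.43, adjusted p = 0.00443, limma). Trem2, a receptor gene tied to fusion, fell with IL-6 to 90.9 FPKM from 222 FPKM (-1.28, adjusted p = 0.0492, limma), a call lost without any 1 library other than IL-4 #1 or #3 (adjusted p up to 0.178, limma). Its adaptor Tyrobp, at 1584, 1145 and 1219 FPKM, did not pass. With IL-4, 7 genes of this list were higher without IL-4 #3, and 5 were lower without IL-4 #1. Once the set of libraries entered the fit, 1 gene of this list was higher and 1 lower with IL-6.

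Of 19 other tetraspanins and their partners, 17 were tested, with 0 higher and 4 lower with IL-4 and 1 higher and 0 lower with IL-6. Medians of these genes were -0.09 and -0.07, against -0.20 and -0.004 over all genes tested, of which 13.9% and 5.38% passed. Cd82 fell with IL-4 from 30.6 to 13.2 FPKM (log2 fold change -1.22, adjusted p = 0.000234, limma), as did Tspan33 (-1.14, adjusted p = 0.0214, limma) and Tspan4 (-1.11, adjusted p = 0.000199, limma). After median-ratio rescaling the counts with IL-4 were 2 higher and 1 lower, and the calls of Tspan33 and Tspan4 were lost. Tspan33 also lost its call without Control #2, Control #3 or IL-4 #2 (adjusted p up to 0.091, limma). Cd63, the lysosomal tetraspanin, at 321, 456 and 235 FPKM, and Cd151, at 29.9, 39.8 and 26.1 FPKM, did not pass. Ptgfrn, an immunoglobulin-family partner of CD9 and CD81, rose with IL-6 from 1.63 to 6.06 FPKM (1.84, adjusted p = 0.00751, limma), a call lost with the set as a term. Of 16 other cadherins, catenins and regulators, 5 were tested, and 0 passed with either cytokine. The catenins that link E-cadherin to the cytoskeleton were present throughout, with Ctnnb1 at 79.8, 91.9 and 150.4 FPKM, Ctnna1 at 49.0, 52.3 and 51.0 FPKM, and Ctnnd1 at 4.72, 4.39 and 3.93 FPKM.

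**Figure D5:**
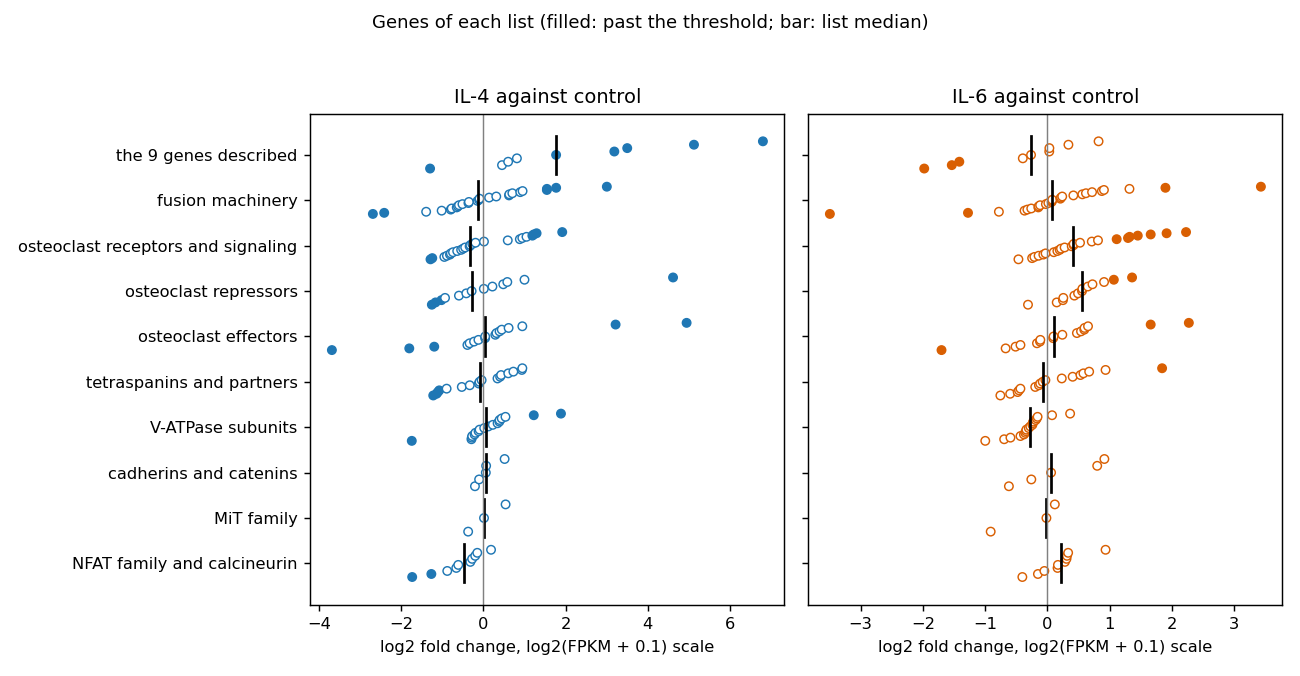
Log2 fold changes of the tested genes of each list with IL-4 (left) and IL-6 (right) against control, on the log2(FPKM + 0.1) scale, with filled points past the threshold and black bars for the list medians. The median of the 9 genes described was 1.77 with IL-4, and the other medians lay between -0.46 and 0.07. Over all genes tested, the median with IL-4 was -0.20.

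Genes with the most similar profiles were found by the root mean square difference of centred log2 levels over the 9 libraries, among 11097 genes. For Dcstamp they were Serpinb9b (0.235) and Flrt2 (0.503), and for Ocstamp Msx3 (0.476) and Slc7a2 (0.518). Atp6v0d2 was closest to Ankrd13b (0.166) and Pparg (0.213), the latter encoding the lipid-sensing nuclear receptor. Acp5 was closest to the chemokine genes Ccl6 (0.198) and Ccl9 (0.278), and Cdh1 to Gfra2 (0.310) and Cttn (0.370), which encodes the actin-binding protein cortactin. Cd9 was closest to Arhgap25 (0.161) and Clec7a (0.165), Cd81 to Nif3l1 (0.0993) and Sh3glb2 (0.113), Nfatc1 to Als2cl (0.0490) and Inpp5d (0.0661), and Mitf to Brwd1 (0.0836) and March6 (0.0982). All profiles share the same 9 libraries, and a flat profile lies close to many others.

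Markers of other cells were measured beside the 9 genes, and some differed between the groups. Of 9 dendritic cell markers, the sum was 21.7 to 27.8 FPKM in control, 231 to 402 FPKM with IL-4 and 10.2 to 12.6 FPKM with IL-6, of which Itgax, a gene that Mϕs also use, made up 20.5, 334 and 6.40 FPKM on average. The defining gene Flt3 was at 0.215 to 0.412 FPKM with IL-4 and 0.513 to 0.552 FPKM in control, while Zbtb46 was at 0.297 to 0.465 FPKM with IL-4 and 0.0737 to 0.0901 FPKM in control. Osteoblast and stroma markers summed to 0.961 to 2.35 FPKM over all libraries, and the RANKL gene Tnfsf11 was at 0 in 5 of them. Melanocyte markers, relevant to Mitf, summed to 0.173 to 1.28 FPKM, with 2 of 5 at 0 throughout. Lymphocyte markers summed to 25.0 to 48.6 FPKM in control, 45.8 to 74.9 FPKM with IL-4 and 18.1 to 31.3 FPKM with IL-6. Of these 7, Gzma, the granzyme A gene of killer lymphocytes, was at 0.0285, 0 and 0 FPKM in control, 27.7, 20.0 and 40.1 FPKM with IL-4 and 0.0285, 0.122 and 0.129 FPKM with IL-6, so that it too passed the filter only through IL-4. Of the 5 lymphocyte markers tested, Gzma alone passed with IL-4, where 13.9% of all genes tested passed. Log2 fold changes of the others with IL-4 were -0.78 for Cd79a, -0.58 for Cd79b, -0.34 for Ms4a1 and 0.81 for Nkg7. Skeletal muscle markers summed to 2.02 to 13.6 FPKM over all libraries. The part of these cells in the levels of the 9 genes was not tested.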

How the data were processed

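RNA-seq of mouse BM-derived Mϕs was analysed from the table that the authors deposited, with 9 libraries in 3 groups. The deposited values are FPKM. Per the labels and methods, reads were aligned with STAR 2.4.2a to GRCm38 and FPKM were computed with Cufflinks 2.2.1 on GENCODE M5. A filter or the use of strand in counting is not stated. Of 53379 gene identifiers, 94.8% matched GENCODE M21 with their version. All of 109681 values tested were whole fragments over the M21 exon union within 0.05, so which program and annotation gave the table is open to doubt. Library totals and fragments were read from these steps. The identifier of Nfatc1 had another version, so its fragments were not read.

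The 12824 genes with a mean of at least 0.5 FPKM were fitted with limma 3.58.1 (R 4.3.3) on log2(FPKM + 0.1), with 3 group means and trend and robust eBayes, two-sided, and adjusted by Benjamini-Hochberg. The script was tested on simulated data. Calls required a log2 fold change of 1 or more in either direction beside an adjusted p under 0.05. Single values were compared by two-sided exact permutation tests of 3 libraries against 3, whose smallest p is 0.1. Errors are SD over 3 libraries. Coordinates are those of M21 on GRCm38. Python 3.11.15, pandas 2.3.3 and matplotlib 3.10.9 were used for tables and plots.

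The 9 genes and the gene lists were chosen with earlier results of these data known. Beside them, the genes named are, per list, the 3 largest calls with IL-4 and the 2 largest with IL-6, set paralogs and cofactors (1 of which is not reported here), and the 2 nearest profiles. Marker genes and Tcirg1, Calcr, Oscar and Tnfsf11 were named for their known roles, and Fosl1 for how it passed the filter. Itgb3 and Oscar were in both the receptor and the effector list, and Tcirg1 in both the effector and the V-ATPase list. The replicate number was taken as the mouse from the column names, since marrow of 3 mice was used. Deviations of same-numbered libraries correlated at 0.521, -0.415 and 0.0777 between control and IL-4 and at 0.408, 0.201 and 0.166 between control and IL-6, and at 0.281, -0.0612 and 0.153 between the cytokines, so the values do not bear out the pairing throughout. The alternatives covered the pseudocount, filter, scaling, samples fitted, mouse as a block, fragments fitted with voom, set of libraries, single libraries left out and, chosen after seeing the data, removal of trends with length and GC content. A changed sign was counted as reversed only where the value exceeded its SE or the alternative passed. The set was defined from the Paneth and goblet cell transcripts.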

Additional observations from a re-analysis of the deposited data

How the results depend on the processing

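Of the 9 genes, 6 passed with IL-4 against control, and 5 to 7 passed under all alternatives run, 5 or 6 without any 1 library. With IL-6 against control 3 passed, 2 with a pseudocount of 1 and 3 without any 1 library, but 1 once the set of libraries entered the fit, in which IL-4 #1 alone links control to the other set. With IL-6 against IL-4 7 passed, and 6 or 7 under the alternatives and without any 1 library, or 8 at an adjusted p under 0.05 with no limit on size. Among values larger than their SE, Ocstamp with IL-6 against control changed sign, to a log2 fold change of 0.068 with the set as a term, at 1 to 9 fragments per library. The values of Cdh1 and Nfatc1 with IL-6, 0.03 each and smaller than their SE, also took both signs, down to -0.21 and -0.057 without 1 library. With the replicate block, the mouse as a term, 6, 3 and 7 of the 9 genes passed, and the pairing changed no call of these genes.

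Over all genes, the 1784 calls with IL-4 became 1111 with the set as a term and 847 at a mean of at least 5 FPKM, and the 690 calls with IL-6 became 187 and 306. The 2613 calls between the cytokines became 1219 at that filter. Without 1 library, calls with IL-6 ranged from 387 (without Control #3) to 1001 (without IL-4 #3), and were 445 without Control #2, 424 without IL-6 #2 and 408 without IL-6 #3. In the lists, counts against control ranged as follows when 1 library was left out. With IL-4, osteoclast receptors and signaling genes had 2 to 6 higher, with 2 without any control or IL-6 library or IL-4 #2. Fusion genes had 4 to 7 higher and 2 to 5 lower, osteoclast repressors 1 or 2 higher and 1 to 3 lower, and tetraspanins 0 or 1 higher and 2 to 4 lower. With IL-6, fusion genes had 1 or 2 lower, repressors 1 or 2 higher, tetraspanins 1 or 2 higher and V-ATPase genes 0 or 1 lower. Under the other alternatives, the widest ranges with IL-4 were 2 to 7 higher for receptors and signaling, 3 to 6 higher for fusion, 0 to 3 lower for repressors, and 0 to 3 higher and 1 to 4 lower for tetraspanins, and with IL-6 2 to 7 higher for receptors and signaling. With the set as a term, the calls of Atp6v1g2, Csf1r, Irf8, Nfatc2, Prdm1 and Tspan33 with IL-4 and of Fosl2, Ptgfrn, Rbpj and Trem2 with IL-6 were lost. Nfatc1 has no value from voom, since no exon length of its version was at hand. Ocstamp with IL-6 and control was limited by depth.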
